A study of Mus musculus with 30 samples.

Results

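Chemokines are small secreted or membrane-bound proteins that attract cells along a gradient, and 7 genes that encode them were followed here, *Cxcl1*, *Cxcl5*, *Cxcl12*, *Cxcl16*, *Cx3cl1*, *Ccl2* and *Ccl7*, among the 18194 genes that the arrays measured with a probe set of a single symbol. A probe set is a group of short probes for the same transcript, and 15 of the 45101 probe sets on the arrays carried the name of a single member. Where a gene had several, the one brightest on average over the 30 arrays on the log2 scale stood for it. *Cxcl1* has a second probe set, 1457644_s_at, that would have been chosen on the linear scale (mean of 842, against 779 for 1419209_at), and calls that the 2 do not share are named below. The arrays came from mouse C2C12 cells, a myoblast line that fuses into myotubes in low serum and turns towards the osteoblast lineage when the growth factor BMP2 is added.

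The study compared C2C12-pMirn378 cells, which carry a lentiviral construct for overexpression of the microRNA miR-378, with C2C12-pMirn0 cells, which carry the parent vector. The submitters' design text pairs construct and vector with the 2 lines the other way round, so the assignment used is the one the study itself describes, and what a difference between the lines says of miR-378 rests on it. Each line is a single population of transduced cells sorted for a fluorescent reporter, so a difference between the lines cannot be told apart from a difference between these particular populations. Cells were harvested at d0 (24 h after plating), and at d3 and d6 after a change to medium with less serum, with 300 ng/ml BMP2 or without it (untreated). This gave 10 groups of 3 arrays: C2C12-pMirn378 and C2C12-pMirn0, each at d0, at d3 with BMP2 and untreated, and at d6 with BMP2 and untreated. The 3 arrays of a group are cultures of the same line, so the p-values measure only the spread between such cultures.

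Chemokines are grouped by the spacing of their first cysteines into CXC, CC and CX3C ligands, which act through G protein-coupled receptors, while atypical receptors bind and clear them without G protein signalling. *Cxcl1* and *Cxcl5* encode attractants of neutrophils, and *Ccl2* and *Ccl7* encode attractants of monocytes. *Cxcl12* encodes the stromal ligand that keeps stem and progenitor cells in place, and *Cxcl16* and *Cx3cl1* encode ligands that are made as membrane proteins and released by proteases. In injured muscle and in bone, mesenchymal cells make several of these ligands and thereby recruit leukocytes.

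Values are linear intensities as deposited, given per array or as the average expression value (AEV) ± SD over 3 arrays, and ratios are log2 ratios ± SE from a limma fit of all 30 arrays. A member was called where the Benjamini-Hochberg adjusted p over all 45101 probe sets was under 0.005 and the log2 ratio was beyond 0.6 in either direction. A group was termed dim where its mean log2 level lay below 6.26, the median of all values, and levels are compared within a probe set only. Of the 7 representative probe sets, 6 were above that level in all 10 groups. *Cxcl16* was dim in 1 group, C2C12-pMirn0 cells at d6 with BMP2.

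The cells carried the expression of their labelled type. All 6 measured myoblast and myotube markers lay above the median level in every group, and their summed intensity was 11092 to 12722 in C2C12-pMirn378 cells at d3 with BMP2, against 76812 to 81519 untreated. The 4 measured osteoblast markers summed to 6344 to 7065 in C2C12-pMirn378 cells at d3 with BMP2, against 179 to 247 untreated. In C2C12-pMirn0 cells at d3 with BMP2 they summed to 3409 to 3595. *Sp7* and *Alpl* made up most of the sums with BMP2, while *Ibsp* was dim in every group and *Dlx5* was dim in C2C12-pMirn0 cells with BMP2. The sum thus differed between the lines at d3 with BMP2. At d0 it overlapped, with 174 to 221 in C2C12-pMirn378 cells and 182 to 269 in C2C12-pMirn0 cells. At d6 untreated it overlapped too, with 208 to 218 and 204 to 233. The part of the myotube or osteoblast marker shift in the chemokine values was not tested. Of 7 leukocyte markers, *Csf1r*, *Cd68* and *Adgre1* were not dim in every group, and of 5 endothelial markers only *Kdr*, while the defining markers *Ptprc* and *Pecam1* were dim throughout. Over all 30 arrays the leukocyte markers summed to 269.6 to 463 and the endothelial markers to 82.6 to 218. *Csf1r* rose with differentiation with BMP2 by a mean of 0.70 log2 units in both lines, and its part in the chemokine values was not tested either. Array medians ran over 68.0 to 82.7, replicates correlated at 0.986 or above over bright probe sets, and the overexpression of miR-378 itself was not checked on these arrays.

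Promoter sequence was matched for 3 of the 7 members in the RefSeq table of build GRCm38.p6, namely *Cxcl1*, *Cxcl12* and *Cx3cl1*. The windows, 250 bases before to 50 bases after the start of the gene, were searched on both strands for the kappaB motif of 10 bases, the site type bound by NF-kB factors, and for TATAAA. A kappaB match was present in *Cxcl1* only, at -71 to -62 on the strand of the gene, with a match on the opposite strand at -70 to -61 that overlaps it. A TATAAA match was present in *Cx3cl1* only, at -6 to -1, and *Cxcl12* held neither motif. Of 27025 promoters in the table, 8.18% held a kappaB match and 14.2% a TATAAA match on either strand. The stretches that hold the matches are shown because *Cxcl1* had the largest rise with BMP2 among the members and *Cx3cl1* a smaller one, with the matches in capitals (chr5:90891145-90891244 and chr8:94772120-94772179, plus strand, both ending at the base before the start).
Cxcl1: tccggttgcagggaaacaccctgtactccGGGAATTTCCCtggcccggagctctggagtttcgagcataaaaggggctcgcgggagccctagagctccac
Cx3cl1: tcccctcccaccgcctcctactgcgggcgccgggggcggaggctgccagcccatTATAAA

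A match of letters is not a binding site that was measured here. In the same build *Ccl2* (chr11:82035577-82037452) and *Ccl7* (chr11:82045712-82047525) are neighbours, *Cxcl16* lies elsewhere on chromosome 11, and *Cxcl1* and *Cxcl5* both lie on chromosome 5.

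The 7 members did not share a single pattern over the 10 groups. The span between the lowest and the highest group mean was widest in *Cxcl12* (4.00 log2 units) and *Cxcl1* (3.76), followed by *Cxcl5* (2.94), *Ccl2* (2.27), *Ccl7* (1.53), *Cx3cl1* (1.47) and *Cxcl16* (1.16). With the groups ordered by their mean, neighbouring groups had arrays that did not overlap in 7 of 9 steps in *Cxcl1* and in *Cxcl12*, in 5 in *Ccl2*, in 3 in *Cxcl5*, in 2 in *Ccl7* and in 1 in *Cx3cl1*. In *Cxcl16* every neighbouring pair overlapped. Undifferentiated C2C12-pMirn378 cells had the lowest mean of all 10 groups in 4 members, *Cxcl1*, *Cxcl5*, *Cxcl12* and *Ccl7*. The groups were ordered by the same values, and these counts were not set beside those of all probe sets. They are a description only.

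In *Cxcl1* the order ran, from high to low, over C2C12-pMirn0 d6 BMP2 (AEV 2093), C2C12-pMirn378 d6 BMP2 (1727), C2C12-pMirn0 d3 BMP2 (1711) and C2C12-pMirn378 d3 BMP2 (627), with all untreated and d0 groups below. The arrays of C2C12-pMirn378 d6 BMP2 and C2C12-pMirn0 d3 BMP2 overlapped, as did those of C2C12-pMirn378 d6 untreated (261) and d3 untreated (247). In *Cxcl5* the highest 4 groups, the same 3 with BMP2 and C2C12-pMirn0 d3 untreated, followed each other without separation between neighbours (1024 to 762), as did the next 4 (467 to 342), and C2C12-pMirn0 d6 untreated (204) and C2C12-pMirn378 d0 (134) stood below them.

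In *Cxcl12* the order was led by C2C12-pMirn378 d6 untreated (2093), then 3 groups without separation between neighbours (1435 to 1281), and below these every step was separated. In *Ccl2* the untreated groups and C2C12-pMirn0 d0 held the first 5 places (687 to 461) and the d3 groups with BMP2 the last 2, C2C12-pMirn0 (182) and C2C12-pMirn378 (153), which overlapped. In *Ccl7* the d6 groups with BMP2 led and overlapped (542 and 534), 6 groups followed without separation between neighbours (440.4 to 363), and C2C12-pMirn378 d3 BMP2 (233) and d0 (190) came last and overlapped. In *Cx3cl1* the single separated step lay between C2C12-pMirn0 d3 BMP2 (202) and C2C12-pMirn378 d6 untreated (152), with 4 groups above it and 6 below. In *Cxcl16* the AEVs ran over 76.0 to 158.

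**Figure D1:**
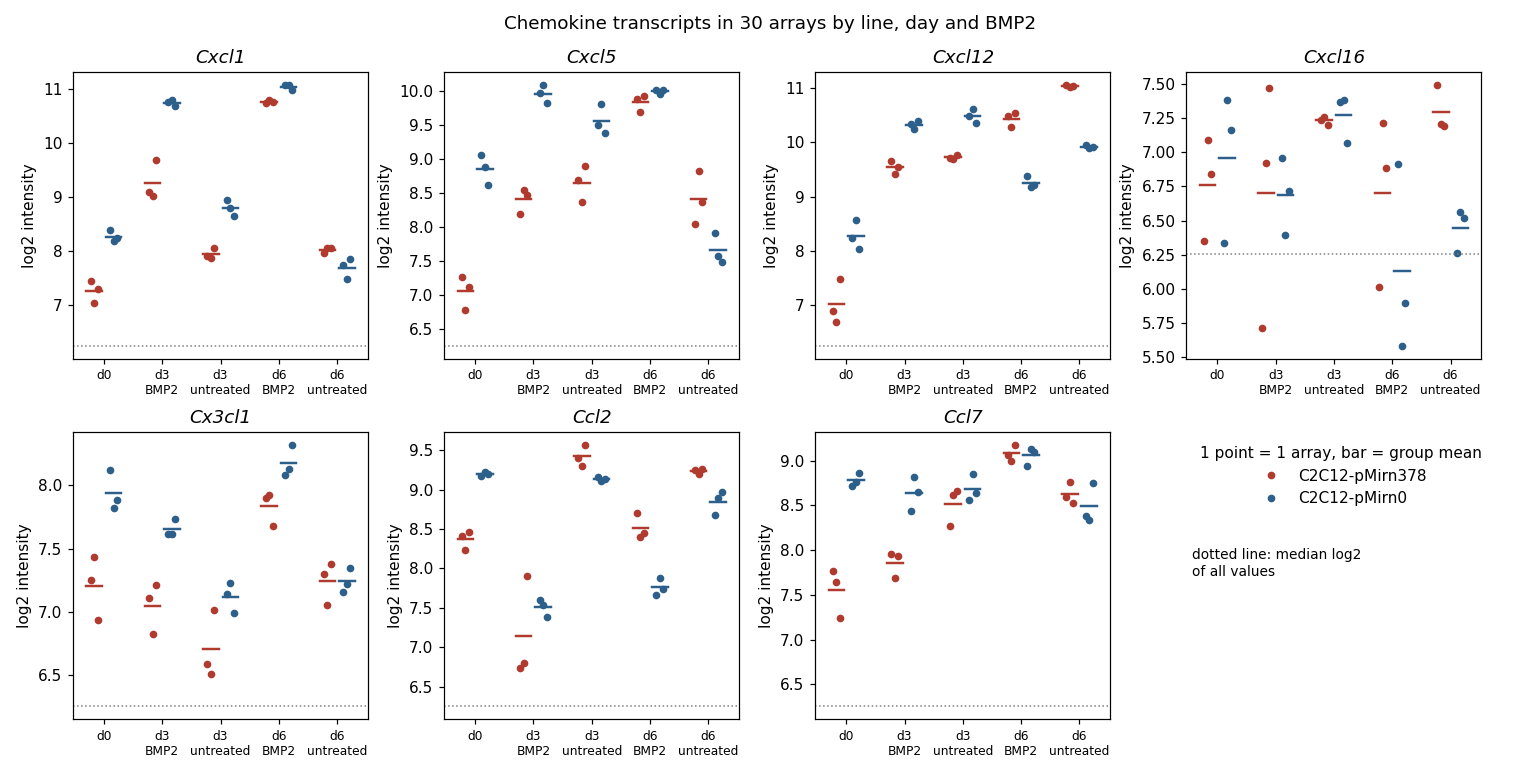
Log2 intensity (vertical axis) of the 7 chemokine probe sets in each array, by day and treatment (horizontal axis), for C2C12-pMirn378 (red) and C2C12-pMirn0 (blue). Points are arrays, bars are group means (n = 3), and the dotted line is the median of all values, 6.26. At d0 the red points lie below the blue points in every panel but that of *Cxcl16*, where they overlap.

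Before any differentiation, C2C12-pMirn378 cells expressed less of most members than C2C12-pMirn0 cells. At d0, 5 of the 7 members were lower, *Cxcl1*, *Cxcl5*, *Cxcl12*, *Cx3cl1* and *Ccl7*, whereas 0.763% of all probe sets were called in this comparison, and 0.501% were called lower. Among the 11982 genes that were not dim in every group, 1.03% were called lower. The median log2 ratio of the 7 members was -1.00, and that of all probe sets was -0.04. In bulk RNA, fewer cells of a type and less RNA per cell cannot be told apart.

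Of the neutrophil attractants, *Cxcl5* had 154, 110 and 140 units in C2C12-pMirn378 cells at d0, against 535, 473 and 392 units in C2C12-pMirn0 cells. The 2 sets of arrays did not overlap, and the log2 ratio was -1.80 ± 0.18 (adjusted p = 2.69e-06). *Cxcl1* had 176, 133 and 158 units in C2C12-pMirn378 cells at d0, against 334, 290.5 and 303 units in C2C12-pMirn0 cells, again without overlap (log2 ratio -1.00 ± 0.14, adjusted p = 0.000108). The difference in *Cxcl1* was called on its representative probe set only: the other probe sets of the gene, 1457644_s_at and 1441855_x_at, gave -0.80 (adjusted p = 0.0577) and -0.37 (adjusted p = 0.287).

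*Cxcl12* had 119, 104 and 179 units in C2C12-pMirn378 cells at d0, against 303, 379 and 261 units in C2C12-pMirn0 cells (log2 ratio -1.25 ± 0.15, adjusted p = 1.54e-05). Its next probe set, 1417574_at, which was dim in C2C12-pMirn378 cells at d0 and in no other group, gave -1.55 ± 0.18 (adjusted p = 1.37e-05). Both probe sets thus placed all arrays of C2C12-pMirn378 below all arrays of C2C12-pMirn0. The membrane-bound ligand *Cx3cl1* had 152, 173 and 122 units in C2C12-pMirn378 cells, against 278, 226 and 236 units in C2C12-pMirn0 cells, and its log2 ratio of -0.73 ± 0.14 was the closest to the threshold (adjusted p = 0.00410). Leaving out any single array of the comparison other than C2C12-pMirn378 replicate 2 ended that call for *Cx3cl1*, with log2 ratios of -0.60 to -0.79 without C2C12-pMirn378 replicate 1 or 3 or C2C12-pMirn0 replicate 1, 2 or 3, and adjusted p-values up to 0.0373. Weighting the arrays ended it too (adjusted p = 0.00696).

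Of the monocyte attractants, *Ccl7* had 218, 199 and 151 units in C2C12-pMirn378 cells at d0, against 421, 435 and 465 units in C2C12-pMirn0 cells (log2 ratio -1.23 ± 0.14, adjusted p = 1.35e-05). Its neighbour *Ccl2* had 341, 301 and 353 units in C2C12-pMirn378 cells, against 578, 595 and 586 units in C2C12-pMirn0 cells. These arrays did not overlap either, but the log2 ratio of -0.83 ± 0.19 did not pass the adjusted threshold (adjusted p = 0.0153). *Cxcl16*, the ligand of Cxcr6, overlapped between the lines (log2 ratio -0.20 ± 0.38, adjusted p = 0.873). With only these 2 groups in the limma fit (4 residual degrees of freedom against 20), 0 of the 7 members were called at d0 and 6 had an unadjusted p under 0.05. Adjusted p-values of the 5 members were then 0.120 to 0.240, with the same log2 ratios. The share of all probe sets called in that fit was not recorded, so its 0 of 7 cannot be set beside such a share.

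At d3 with BMP2, 4 of the 7 members were lower in C2C12-pMirn378 cells, *Cxcl1*, *Cxcl5*, *Cxcl12* and *Ccl7*. Of all probe sets, 3.08% were called and 1.46% were called lower. Of genes not dim in every group, 6.55% were called and 2.79% were called lower. *Cxcl1* reached 543, 517 and 820 units in C2C12-pMirn378 cells, against 1715, 1774 and 1643 units in C2C12-pMirn0 cells (log2 ratio -1.48 ± 0.14, adjusted p = 7.04e-08). *Cxcl5* had 294, 375 and 356 units in C2C12-pMirn378 cells, against 1005, 1092 and 908 units in C2C12-pMirn0 cells (log2 ratio -1.55 ± 0.18, adjusted p = 2.79e-06). For both neutrophil attractants the gap between the lines was thus wider than the spread within either, and all 3 probe sets of *Cxcl1* were called here, with -1.70 on 1457644_s_at and -0.91 on 1441855_x_at.

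The log2 ratio at d3 with BMP2 was -0.78 ± 0.15 for *Cxcl12* (adjusted p = 0.000655) and -0.78 ± 0.14 for *Ccl7* (adjusted p = 0.000536). Without C2C12-pMirn378 replicate 2 neither was called (-0.72 and -0.69), *Ccl7* was not called without C2C12-pMirn0 replicate 2 (-0.69), and *Cxcl12* was not called without C2C12-pMirn0 replicate 3 (-0.74). In *Cx3cl1* the ratio was -0.61 ± 0.14, which missed the threshold on p (adjusted p = 0.00543). Replicate 3 of C2C12-pMirn378 at d3 with BMP2 stood apart in several members, with 820 units of *Cxcl1* against 543 and 517 in the other arrays of its group, and 239 units of *Ccl2* against 107 and 112. Over all bright probe sets its median deviation from the group mean was 0.0832 log2 units, within the 0.0611 to 0.0935 of the 30 arrays. Without this array, *Ccl2* was called lower in C2C12-pMirn378 cells (log2 ratio -0.74, adjusted p = 6.54e-05), against -0.36 with it (adjusted p = 0.285).

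Without BMP2 at d3, only *Cxcl1* was lower (1 of 7, against 0.419% of all probe sets). It had 240.5, 233 and 268 units in C2C12-pMirn378 cells, against 494, 446 and 402 units in C2C12-pMirn0 cells (log2 ratio -0.85 ± 0.14, adjusted p = 0.000890). The arrays did not overlap. The other probe sets of *Cxcl1* gave -0.55 (adjusted p = 0.435) and -0.11 (adjusted p = 0.953), and the call was lost without C2C12-pMirn378 replicate 1 (-0.84) or 2 (-0.81), or without C2C12-pMirn0 replicate 1 (-0.78) or 2 (-0.85). *Cxcl12* (-0.76 ± 0.15, adjusted p = 0.00638) and *Cxcl5* (-0.91 ± 0.18, adjusted p = 0.0103) missed the threshold.

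At d6 the only member that differed between the lines was *Cxcl12*, and the difference had turned. Untreated C2C12-pMirn378 cells had 2125, 2059 and 2095 units of *Cxcl12* at d6, against 994, 950.5 and 963 units in C2C12-pMirn0 cells (log2 ratio 1.11 ± 0.15, adjusted p = 0.000250), and 1 of 7 members was called where 0.160% of all probe sets were. With BMP2, *Cxcl12* had 1422, 1245 and 1493 units in C2C12-pMirn378 cells, against 663, 578 and 595 units in C2C12-pMirn0 cells (log2 ratio 1.18 ± 0.15, adjusted p = 9.08e-06), and 1 of 7 members was called where 1.83% of all probe sets were. All arrays of C2C12-pMirn378 lay above all arrays of C2C12-pMirn0 in both treatments. Of genes not dim in every group, 0.376% were called between the lines at d6 untreated and 4.26% with BMP2. The second probe set, 1417574_at, gave 1.21 untreated and 1.45 with BMP2. *Cxcl1*, *Cxcl5* and *Ccl7* had log2 ratios of -0.28, -0.16 and 0.02 at d6 with BMP2, none of which was called. *Ccl2* with BMP2 (0.76 ± 0.19, adjusted p = 0.0136) and *Cxcl5* untreated (0.76 ± 0.18, adjusted p = 0.0531) missed the threshold on p at d6.

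Whether the line difference itself changed with time was then tested, a contrast that was added after the values had been seen. From d0 to d6 without BMP2, the difference between the lines moved upwards in 4 of 7 members, *Cxcl5* (by 2.55 ± 0.26, adjusted p = 3.14e-06), *Cxcl12* (2.36 ± 0.21, adjusted p = 3.73e-07), *Ccl7* (1.37 ± 0.20, adjusted p = 0.000426) and *Cxcl1* (1.33 ± 0.19, adjusted p = 0.000342), against 0.490% of all probe sets called. From d0 to d6 with BMP2 it moved upwards in 4 of 7, *Cxcl12* (2.43 ± 0.21), *Cxcl5* (1.63 ± 0.26), *Ccl2* (1.58 ± 0.27) and *Ccl7* (1.25 ± 0.20), against 1.58%. Between d3 and d6 with BMP2 it moved upwards in 3 of 7, *Cxcl12* (1.96 ± 0.21), *Cxcl5* (1.39 ± 0.26) and *Cxcl1* (1.20 ± 0.19), against 1.28%. Of genes not dim in every group, 1.05%, 3.66% and 3.05% were called in these contrasts, in the order given.

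These contrasts share the d0 and d6 arrays with each other and with the comparisons above, and are not independent of them. For *Cxcl5* between d3 and d6 with BMP2, 9 of 12 fits that left out a single array ended the call, with values of 1.29 to 1.42 and adjusted p-values up to 0.00860; it held only without replicate 3 of C2C12-pMirn0 at d3 or replicate 2 of C2C12-pMirn378 at either day. *Cxcl1* was called on its representative only: on 1457644_s_at and 1441855_x_at the change from d0 to d6 without BMP2 was 1.19 (adjusted p = 0.0651) and 0.56 (adjusted p = 0.280), and that between d3 and d6 with BMP2 was 1.47 (adjusted p = 0.0100) and 0.41 (adjusted p = 0.531). *Ccl2* was not called between d3 and d6 with BMP2 (1.12), and was called without replicate 3 of C2C12-pMirn378 at d3 (1.49). *Cxcl12* passed on 1417574_at in all 3 contrasts (2.76, 3.00 and 2.22).

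**Figure D2:**
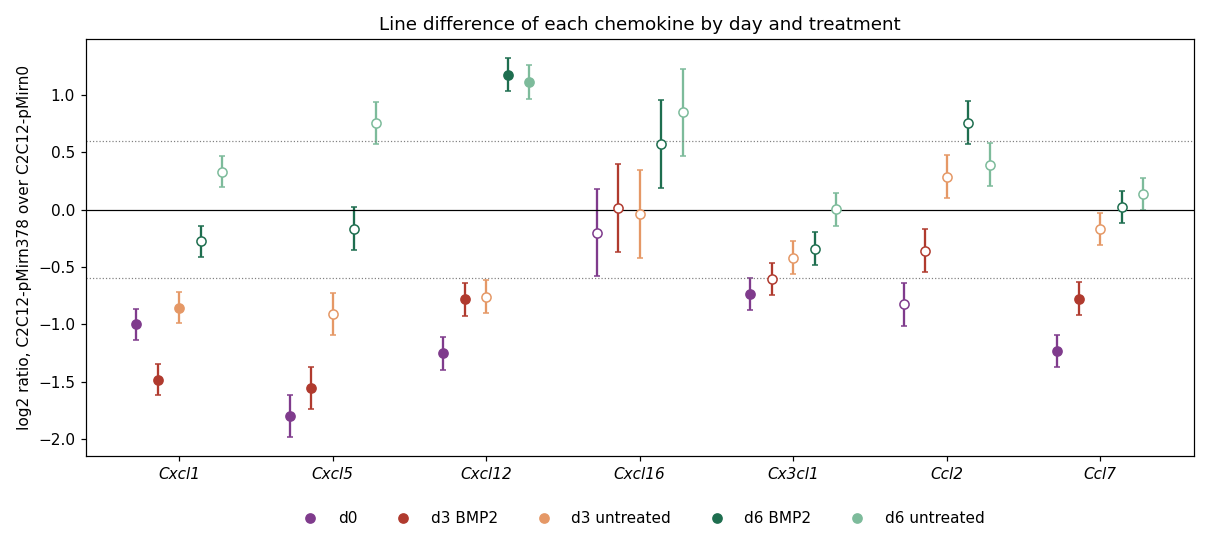
Log2 ratio of C2C12-pMirn378 over C2C12-pMirn0 (vertical axis, bars are SE from limma, n = 3 arrays per group) for each chemokine (horizontal axis) at d0, d3 and d6, with BMP2 and untreated. Filled symbols passed both thresholds, open symbols did not, and dotted lines mark 0.6 and -0.6. *Cxcl12* runs over -1.25 at d0 to 1.11 and 1.18 at d6.

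Treatment with BMP2 split the members, with *Cxcl1* higher and *Ccl2* lower at both days in both lines. At d3, 3 of 7 members were called in C2C12-pMirn378 cells (18.0% of all probe sets) and 2 of 7 in C2C12-pMirn0 cells (15.4%). At d6, 3 of 7 were called in C2C12-pMirn378 cells (17.4%) and 5 of 7 in C2C12-pMirn0 cells (17.9%). Among the 11982 genes that were not dim in every group, 29.2% to 34.3% were called in these 4 comparisons, so the number of members called at d3 and in C2C12-pMirn378 cells at d6 was not far from that of bright genes at large.

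*Cxcl1* had 1697, 1759 and 1726 units in C2C12-pMirn378 cells at d6 with BMP2, against 250.3, 266 and 267 units untreated (log2 ratio 2.73 ± 0.14, adjusted p = 1.87e-13). C2C12-pMirn0 cells had 2134, 2146 and 2000 units of *Cxcl1* at d6 with BMP2, against 216, 179 and 231 units untreated (log2 ratio 3.33 ± 0.14, adjusted p = 5.56e-15). Every treated array lay above every untreated array of its line by more than the spread of either group. At d3 the effect was smaller, 1.31 ± 0.14 in C2C12-pMirn378 cells (adjusted p = 4.16e-08) and 1.94 ± 0.14 in C2C12-pMirn0 cells (adjusted p = 8.24e-11). On 1441855_x_at the value in C2C12-pMirn378 cells at d3 was 0.38 and was not called (adjusted p = 0.0962).

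*Cxcl5* was higher with BMP2 than untreated at d6 but was not called at d3. At d6 it had 947, 825 and 977 units with BMP2 in C2C12-pMirn378 cells, against 266, 456 and 331 units untreated (log2 ratio 1.42 ± 0.18, adjusted p = 1.38e-06). C2C12-pMirn0 cells had 1037, 999 and 1037 units with BMP2, against 241, 192 and 180 units untreated (log2 ratio 2.34 ± 0.18, adjusted p = 5.29e-10). The groups did not overlap in either line. At d3 the ratios were -0.25 ± 0.18 in C2C12-pMirn378 cells and 0.40 ± 0.18 in C2C12-pMirn0 cells. In C2C12-pMirn0 cells the AEV with BMP2 was 1002 at d3 and 1024 at d6, while the untreated AEV was 762 and 204. In C2C12-pMirn378 cells the AEV was 342 and 916 with BMP2, and 408 and 351 untreated.

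*Ccl2*, the principal attractant of monocytes, was lower with BMP2. It had 107, 112 and 239 units in C2C12-pMirn378 cells at d3 with BMP2, against 678, 627 and 756 units untreated (log2 ratio -2.27 ± 0.19, adjusted p = 1.15e-09). C2C12-pMirn0 cells had 194, 186 and 167 units at d3 with BMP2, against 572, 552 and 563 units untreated (log2 ratio -1.63 ± 0.19, adjusted p = 2.89e-07). No treated array reached an untreated one. At d6 the ratio was -0.72 ± 0.19 in C2C12-pMirn378 cells (adjusted p = 0.00412) and -1.08 ± 0.19 in C2C12-pMirn0 cells (adjusted p = 6.53e-05). In C2C12-pMirn378 cells at d6 the call was lost without replicate 2 (-0.66) or 3 (-0.69) of the treated group or replicate 1 (-0.71), 2 (-0.74) or 3 (-0.71) of the untreated group, and held only without replicate 1 of the treated group.

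*Ccl7*, which lies beside *Ccl2* and encodes a ligand of the same receptor, followed it only in C2C12-pMirn378 cells at d3. With BMP2 it was lower in C2C12-pMirn378 cells at d3, with 247.5, 207 and 245 units against 308, 394 and 405 units untreated (log2 ratio -0.66 ± 0.14, adjusted p = 0.000694). This call was lost without replicate 2 of the treated group (-0.57) or replicate 2 (-0.60) or 3 (-0.58) of the untreated group. At d6 the ratios were 0.45 ± 0.14 in C2C12-pMirn378 cells and 0.57 ± 0.14 in C2C12-pMirn0 cells, neither of which was called. The value of C2C12-pMirn0 cells passed both thresholds without replicate 1 of the treated group (0.63) or replicate 3 of the untreated group (0.70).

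*Cx3cl1* was raised by BMP2 in C2C12-pMirn0 cells at d6, with 270.5, 279.8 and 319 units against 143, 149 and 162 units untreated (log2 ratio 0.93 ± 0.14, adjusted p = 1.22e-05). In C2C12-pMirn378 cells at d6 its ratio of 0.59 ± 0.14 fell short of the fold threshold (adjusted p = 0.00201), and it passed without replicate 3 of the treated group (0.67) or replicate 3 of the untreated group (0.66). *Cxcl12* was lower with BMP2 at d6 in C2C12-pMirn0 cells (log2 ratio -0.66 ± 0.15, adjusted p = 0.000831), a call that was lost without replicate 2 of the treated group (-0.63, adjusted p = 0.00539). On its other bright probe set, 1417574_at, that ratio was -0.06 and was not called by limma (adjusted p = 0.839). In C2C12-pMirn378 cells the representative of *Cxcl12* stood at -0.60 ± 0.15 (adjusted p = 0.00228), which did not pass the fold threshold and passed it without replicate 3 of the treated group (-0.65). *Cxcl16* had ratios of -0.32 to -0.59 in the 4 comparisons, with a SE of 0.38 and no call.

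**Figure D3:**
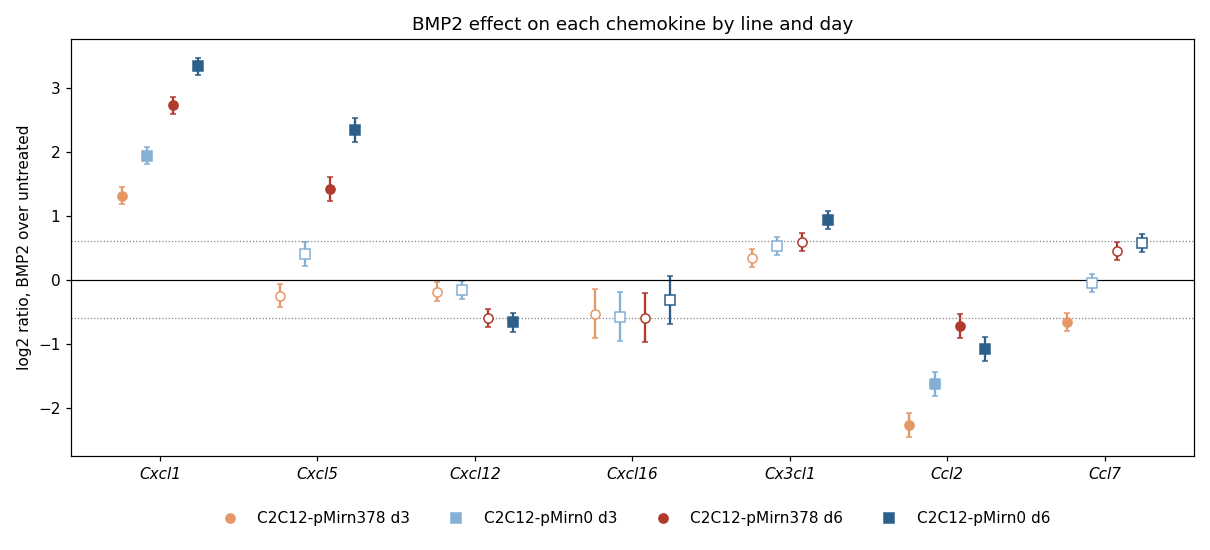
Log2 ratio of BMP2 over untreated (vertical axis, bars are SE from limma, n = 3 arrays per group) for each chemokine (horizontal axis) in C2C12-pMirn378 (circles) and C2C12-pMirn0 (squares) at d3 and d6. Filled symbols passed both thresholds and dotted lines mark 0.6 and -0.6. *Cxcl1* is filled and positive in all 4 comparisons, up to 3.33, and *Ccl2* filled and negative, down to -2.27.

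The BMP2 effect of C2C12-pMirn378 cells minus that of C2C12-pMirn0 cells was called by limma in 0 of 7 members at d3 and in 0 of 7 at d6, where 1.24% and 1.27% of all probe sets were called. At an unadjusted p under 0.05 there were 4 members at d3 and 2 at d6. The lowest adjusted p was 0.0740 at d3 (*Cxcl1*, -0.63 ± 0.19) and 0.0491 at d6 (*Cxcl5*, -0.92 ± 0.26). Without replicate 3 of C2C12-pMirn378 at d3 with BMP2, the array that stood apart above, *Cxcl1* (-0.84, adjusted p = 0.00279) and *Ccl2* (-1.02, adjusted p = 0.000186) were called at d3. With all arrays, a difference between the lines in their response was thus not detected in any member.

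The BMP2 effect did change with the day, again by a contrast added after the values had been seen. In C2C12-pMirn378 cells the effect at d6 exceeded that at d3 in 4 of 7 members (6.17% of all probe sets called), *Cxcl5* (by 1.66 ± 0.26), *Ccl2* (1.55 ± 0.27), *Cxcl1* (1.41 ± 0.19) and *Ccl7* (1.11 ± 0.20). In C2C12-pMirn0 cells it did so in 2 of 7 (3.80%), *Cxcl5* (1.94 ± 0.26) and *Cxcl1* (1.40 ± 0.19). Of genes not dim in every group, 13.9% were called in C2C12-pMirn378 cells and 8.82% in C2C12-pMirn0 cells. On 1457644_s_at the change of *Cxcl1* in C2C12-pMirn0 cells was 1.29 (adjusted p = 0.0110). For *Ccl2* the positive change means that its lower level with BMP2 was nearer to the untreated level at d6.

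Over time, *Cxcl12* was the member that rose under every condition, while the others depended on the line and on BMP2. A change with differentiation was called on 2 conditions, an adjusted p under 0.005 for d6 over d0 and an average of both days' log2 ratios over d0 that was beyond 0.6. In C2C12-pMirn378 cells, 4 of 7 members were called with BMP2 (20.0% of all probe sets) and 5 of 7 untreated (20.1%), all of them higher than at d0. In C2C12-pMirn0 cells, 4 of 7 were called with BMP2 (17.6%), 3 higher and 1 lower, and 2 of 7 untreated (19.0%), 1 in each direction. Of genes that were not dim in every group, 32.3% to 35.2% were called.

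In untreated C2C12-pMirn378 cells the AEV of *Cxcl12* was 134 ± 39.9 at d0, 846 ± 19.5 at d3 and 2093 ± 33.1 at d6 (log2 ratio of d6 over d0 4.00 ± 0.15, adjusted p = 1.07e-15). In untreated C2C12-pMirn0 cells it was 314 ± 59.7 at d0, 1435 ± 128 at d3 and 969 ± 22.5 at d6 (d6 over d0 1.64 ± 0.15, adjusted p = 3.42e-09). The level thus was highest at d6 in C2C12-pMirn378 cells and at d3 in C2C12-pMirn0 cells, and the groups of successive days did not overlap. With BMP2, *Cxcl12* reached 745 ± 61.5 at d3 and 1387 ± 128 at d6 in C2C12-pMirn378 cells. In C2C12-pMirn0 cells with BMP2 it reached 1281 ± 70.5 at d3 and 612 ± 44.7 at d6, so that d6 over d3 was 0.89 ± 0.15 in C2C12-pMirn378 cells and -1.07 ± 0.15 in C2C12-pMirn0 cells.

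In untreated cells *Cxcl5* also parted the lines. Its AEV in C2C12-pMirn378 cells was 134 ± 22.7 at d0, 408 ± 75.4 at d3 and 351 ± 96.6 at d6. In C2C12-pMirn0 cells it was 467 ± 71.5 at d0, 762 ± 119 at d3 and 204 ± 32.7 at d6. The d6 level was above d0 in C2C12-pMirn378 cells (log2 ratio 1.36 ± 0.18, adjusted p = 2.07e-06) and below it in C2C12-pMirn0 cells (-1.19 ± 0.18, adjusted p = 1.29e-05). *Cxcl1* and *Ccl7* of untreated C2C12-pMirn378 cells rose by a mean of 0.72 and 1.02 over d0 and *Ccl2* by 0.96, while *Cx3cl1* of untreated C2C12-pMirn0 cells fell by 0.76 (d6 over d0 adjusted p = 0.000345). The rise of *Cxcl1* was not called on its other probe sets, with 0.65 on 1457644_s_at (adjusted p = 0.0286) and 0.56 on 1441855_x_at (adjusted p = 0.0874).

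From d3 to d6 with BMP2, 6 of 7 members rose in C2C12-pMirn378 cells, all but *Cxcl16*, where 5.70% of all probe sets and 11.7% of genes not dim in every group were called. The log2 ratios of d6 over d3 were 1.49 ± 0.14 for *Cxcl1*, 1.43 ± 0.18 for *Cxcl5*, 1.37 ± 0.19 for *Ccl2*, 1.22 ± 0.14 for *Ccl7*, 0.89 ± 0.15 for *Cxcl12* and 0.79 ± 0.14 for *Cx3cl1*. The median of the 7 members was 1.22, and that of all probe sets was -0.04. None of these 6 calls was lost when any single array of the comparison was left out. With only these 2 groups in the limma fit, 0 of the 7 were called and 6 had an unadjusted p under 0.05 (adjusted p 0.0109 to 0.0954). Here too the share of all probe sets called in that fit was not recorded. On 1417574_at, *Cxcl12* gave 0.24 and was not called (adjusted p = 0.456).

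In the other 3 comparisons of d6 with d3 fewer members moved. In C2C12-pMirn0 cells with BMP2, *Cxcl12* fell (1 of 7, 2.46% of all probe sets). In untreated C2C12-pMirn378 cells *Cxcl12* rose by 1.31 ± 0.15 (1 of 7, 1.83%), and without replicate 3 of the d3 group *Cx3cl1* was called too (0.70, against 0.54 with all arrays). In untreated C2C12-pMirn0 cells *Cxcl1* and *Cxcl5* fell by 1.10 ± 0.14 and 1.90 ± 0.18 (2 of 7, 1.94%). On the other probe sets of *Cxcl1* that fall was 0.93 and 0.67 in size and was not called (adjusted p = 0.0107 and 0.0121).

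The direction of the BMP2 effect on *Cxcl12* at d3 depended on the probe set. On the representative, 1448823_at, BMP2 over untreated was -0.19 ± 0.15 in C2C12-pMirn378 cells and -0.16 ± 0.15 in C2C12-pMirn0 cells. On 1417574_at it was 1.32 ± 0.18 (adjusted p = 2.57e-06) and 1.22 ± 0.18 (adjusted p = 8.95e-06). That probe set had 585, 482 and 500.5 units in C2C12-pMirn378 cells at d3 with BMP2, against 222, 186 and 221 units untreated, and 862, 817 and 1005 units in C2C12-pMirn0 cells with BMP2, against 385, 431 and 340 units untreated. By d6 it was not called in either line (0.17 ± 0.18 and -0.06 ± 0.18), and its BMP2 effect at d6 minus that at d3 was -1.14 ± 0.25 and -1.28 ± 0.25 (adjusted p = 0.00266 and 0.00149). The 2 probe sets correlated at 0.88 over the 30 arrays and which transcripts of the gene each detects was not determined. The third probe set of *Cxcl12*, the 3 further ones of *Cx3cl1* and the second of *Cxcl16* were dim in all 10 groups.

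**Figure D4:**
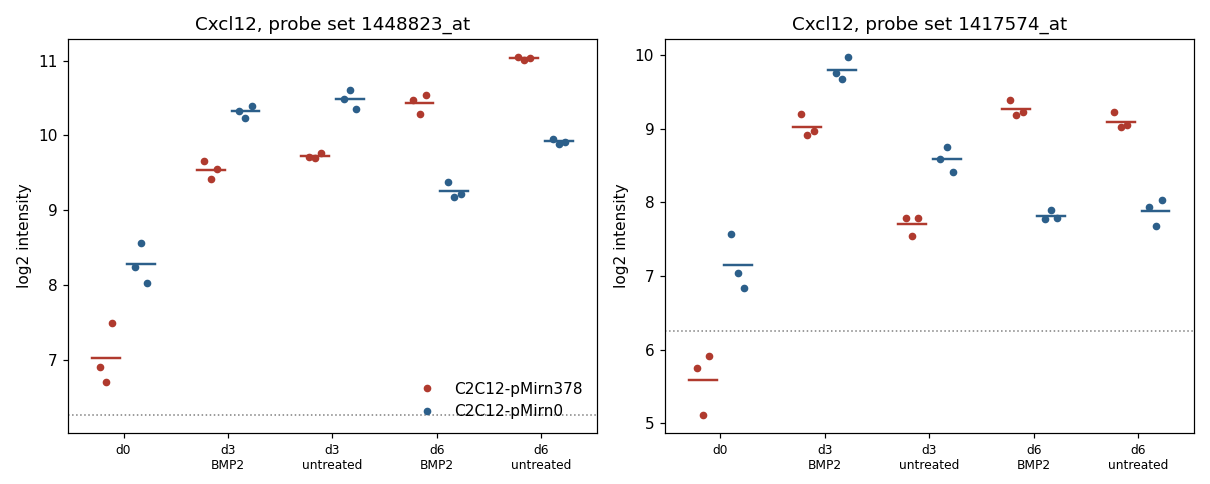
Log2 intensity (vertical axis) of the 2 bright *Cxcl12* probe sets in each array by day and treatment (horizontal axis), for C2C12-pMirn378 (red) and C2C12-pMirn0 (blue), with group means as bars (n = 3). The dotted line is the median of all values. At d3 the BMP2 groups lie above the untreated groups on 1417574_at, by 1.32 and 1.22, but not on 1448823_at.

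Receptors for these ligands were mostly dim. Of 23 receptor genes on the list, 21 were measured and 9 were not dim in every group. *Ackr3*, the atypical receptor that binds and clears Cxcl12, had an AEV of 10352 ± 464 in C2C12-pMirn378 cells at d6 with BMP2, against 2250 ± 147 untreated (log2 ratio 2.20, adjusted p = 4.05e-16). In C2C12-pMirn0 cells at d6 *Ackr3* had 7082 ± 195 with BMP2, against 2095 ± 149 untreated (log2 ratio 1.76). *Cxcr4*, the signalling receptor of Cxcl12, was lower in C2C12-pMirn378 cells without BMP2, with 406, 524 and 504 units at d3, against 857, 777 and 694 units in C2C12-pMirn0 cells (log2 ratio -0.70, adjusted p = 0.00107), and with a log2 ratio of -0.67 at d6 (adjusted p = 0.00367). At d6 untreated the lines thus differed in opposite directions in this receptor and in its ligand. *Ackr4* was lower with BMP2 in all 4 comparisons (log2 ratio -0.71 to -1.12), and at most 3 receptors were called higher and 2 lower in any comparison of BMP2 with untreated cells, where 29.2% to 34.3% of genes not dim in every group were called.

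*Cxcr6*, the receptor of Cxcl16, had 16.7, 40.9 and 46.4 units in C2C12-pMirn378 cells at d6 with BMP2, against 241, 248 and 254 units untreated (log2 ratio -2.97, adjusted p = 2.28e-09), and its log2 ratio in C2C12-pMirn0 cells at d6 was -2.59. At d3 in C2C12-pMirn378 cells *Cxcr6* was instead higher with BMP2, with 78.0, 90.6 and 112 units against 34.8, 43.9 and 49.7 units untreated (log2 ratio 1.13, adjusted p = 0.00110). The groups did not overlap on either day. *Cxcr6* was dim at d6 with BMP2 in both lines and at d3 untreated in C2C12-pMirn378 cells, so the lower side of each ratio was dim. *Ccr9*, the receptor of Ccl25, was called lower with BMP2 in C2C12-pMirn378 cells at d3 (log2 ratio -3.40, adjusted p = 0.00230), on values that were all dim in both groups.

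Of 30 further chemokine ligands, 28 were measured and 11 were not dim in every group. With BMP2, *Cxcl13* (an attractant of B cells), *Ccl8* and *Ccl11* (an attractant of eosinophils) were lower in all 4 comparisons, *Ccl9* in 3 of them, and *Cxcl14* was higher in all 4, beside the same 29.2% to 34.3% of genes not dim in every group. *Ccl11* fell to 9.9, 11.6 and 5.2 units in C2C12-pMirn0 cells at d3 with BMP2, against 321, 374 and 343 units untreated, and the treated values are dim. Of the further ligands not dim in every group, *Ccl9* was the only one called between the lines. It had 22.7, 33.9 and 20.1 units in C2C12-pMirn378 cells at d0, against 57.6, 54.1 and 71.7 units in C2C12-pMirn0 cells, all of them dim (log2 ratio -1.29, adjusted p = 0.000177). At d6 with BMP2 it had 186, 161 and 196 units in C2C12-pMirn378 cells, against 46.2, 52.5 and 71.8 units in C2C12-pMirn0 cells (log2 ratio 1.69, adjusted p = 1.30e-06). It was higher in C2C12-pMirn378 cells at d3 with BMP2 as well (1.13), where *Cxcl12* was lower. At d6 untreated *Ccl9* was also called higher in C2C12-pMirn378 cells, at 232 units against 104 in C2C12-pMirn0 cells (averages taken on the log2 scale).

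**Figure D5:**
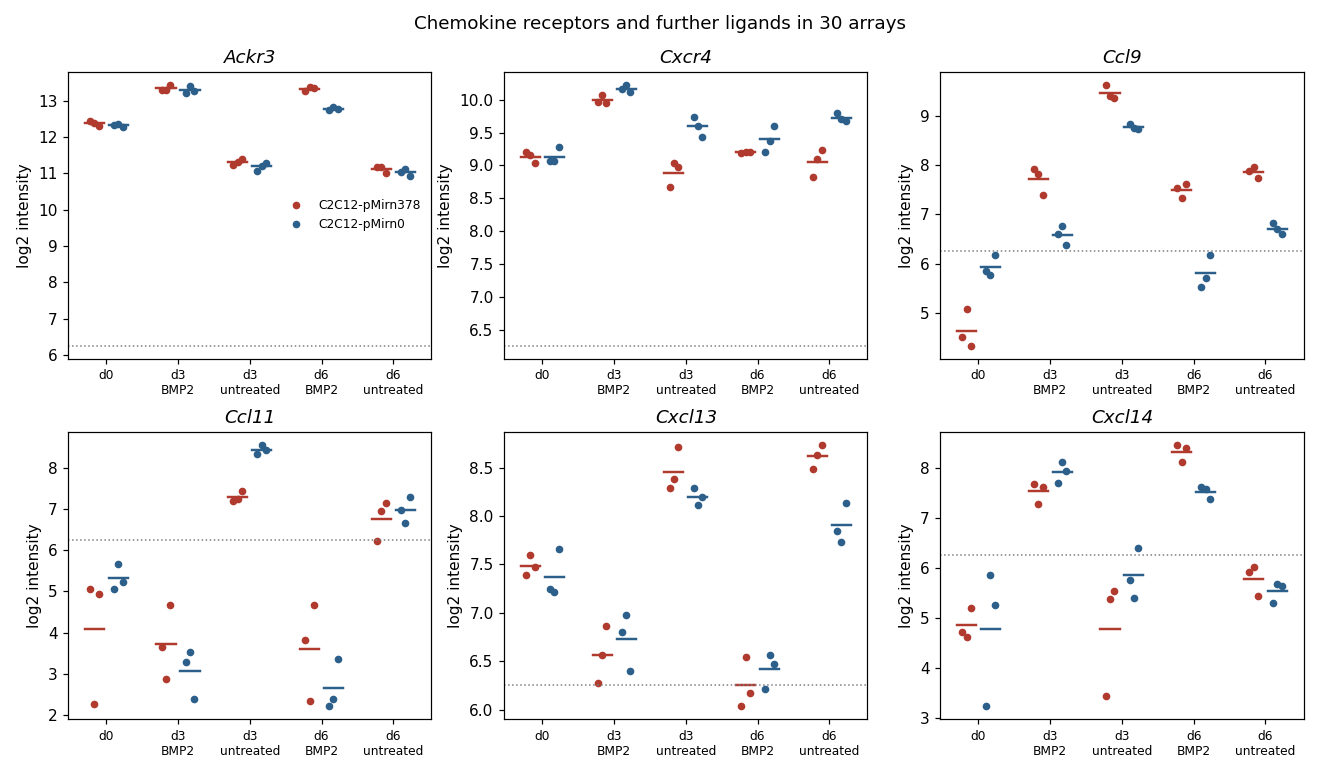
Log2 intensity (vertical axis) of the receptors *Ackr3* and *Cxcr4* and of the ligands *Ccl9*, *Ccl11*, *Cxcl13* and *Cxcl14* in each array by day and treatment (horizontal axis), for C2C12-pMirn378 (red) and C2C12-pMirn0 (blue), with group means as bars (n = 3). The dotted line is the median of all values, below which values are dim. *Ackr3* and *Cxcl14* lie higher with BMP2 and *Ccl11* and *Cxcl13* lower, and *Ccl9* is lower in C2C12-pMirn378 at d0 only.

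Proteases that act on chemokines were called higher with BMP2 where they were called. Of 6 measured, 4 were not dim in every group, the sheddases *Adam10* and *Adam17*, which release Cx3cl1 and Cxcl16 from the membrane, and the matrix metalloproteinases *Mmp2* and *Mmp14*. BMP2 raised 3 of these at d3 and 2 at d6 in C2C12-pMirn378 cells, and 4 at d3 and 3 at d6 in C2C12-pMirn0 cells, beside 29.2% to 34.3% of genes not dim in every group called in these comparisons. *Mmp2*, which can inactivate Cxcl12, was lower in C2C12-pMirn378 cells at d0 (log2 ratio -0.67, adjusted p = 0.000190) and at d3 untreated, with 823, 922 and 872 units against 2149, 2035 and 2162 units in C2C12-pMirn0 cells (log2 ratio -1.28, adjusted p = 5.04e-08). The arrays did not overlap.

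Of 13 genes for NF-kB factors and their inhibitors, 11 were measured. Between the lines limma called 0 of the 11 in each of the 5 comparisons, where 1 to 5 had an unadjusted p under 0.05. Of genes not dim in every group, 0.376% to 6.55% were called in these comparisons, so 0 of 11 was near that share. With BMP2, 3 were higher at both days in both lines, *Nfkbia*, *Nfkbiz* and *Ikbkg*, and *Tnfaip3*, an inhibitor of the pathway, was lower in all 4, beside the 29.2% to 34.3% given above. *Nfkbia*, the inhibitor that holds NF-kB in the cytoplasm, had log2 ratios of 1.94 and 1.33 at d3 and d6 in C2C12-pMirn378 cells, and of 1.62 and 1.08 in C2C12-pMirn0 cells. *Relb* and *Nfkbie* were the 2 that rose with differentiation in untreated cells of both lines. *Rel* fell by a mean of 1.25 in C2C12-pMirn0 cells with BMP2 (adjusted p = 0.00482), where it was dim at d3 and d6.

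The 20 genes for inflammatory cytokines and their receptors were all measured, and 15 were not dim in every group. *Il1rn*, the antagonist of the interleukin-1 receptor, *Il33*, *Ptgs2*, an enzyme of prostaglandin synthesis, *Il6*, *Csf1* and *Tnfrsf1a* were higher with BMP2 in all 4 comparisons, and *Il1b* was lower, beside those 29.2% to 34.3% of genes. *Il1rn* reached 2991 ± 28.5 in C2C12-pMirn378 cells at d6 with BMP2, against 127 ± 21.3 untreated. *Il33* and *Il1rn* were lower in C2C12-pMirn378 cells at d0 (log2 ratios -1.75 and -1.10) and higher at d6 with BMP2 (1.05 and 0.80), and the change of the line difference from d0 to d6 with BMP2 was called in both, at 2.80 and 1.90. At d0 these were the only genes of the list that were called. *Il1r1*, a receptor of interleukin-1, fell at d6 relative to d3 by 0.78 in C2C12-pMirn378 cells and 1.45 in C2C12-pMirn0 cells untreated, and rose by 0.69 in C2C12-pMirn378 cells with BMP2.

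The genes whose log2 level followed each member most closely over the 30 arrays are given as a description, since the arrays share the same groups. *Cxcl1* was followed by *Fgf7*, *Glce* and *Ptx3* (Pearson r 0.98, 0.97 and 0.97) and *Cxcl5* by *Abhd13*, *Cxcl1* and *Sesn2* (0.86, 0.86 and 0.85). *Cxcl12* was followed by *Selenop*, *Bmp4* and *Prkab2* (0.93, 0.92 and 0.92) and *Ccl2* by *Egr3*, *Tmem70* and *Tnfrsf10b* (each 0.91). *Cx3cl1* was nearest to *Txnl4a*, *Abce1* and *1110004F10Rik* (0.88, 0.87 and 0.83). *Ccl7* was nearest to *Osmr*, *Hmox1* and *Papola* (0.81, 0.79 and 0.76), and *Cxcl16* to *Card10*, *Rnf130* and *Derl3* (0.71, 0.68 and 0.66). Between members the highest value was 0.86, between *Cxcl1* and *Cxcl5*, and the lowest was -0.57, between *Cxcl1* and *Ccl2*. *Ccl2* and its neighbour *Ccl7* correlated at 0.24.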

How the data were processed

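The authors hybridised RNA of 30 cultures to Affymetrix GeneChip Mouse Genome 430 2.0 arrays, and the study's methods name Command Console for quantification and RMA in R 2.4.1 with quantile normalization. The authors deposited 1 linear intensity per probe set and array, 0.0561 to 40201. Raw scans were not used here. Array medians ran over 68.0 to 82.7, so the deposited intensity values did not share 1 distribution. For arrays, only their number limits the precision, since no read depth applies. Arrays were grouped by their labels, and all columns of values were used. Log2 of the intensity was taken with no offset and fitted in limma 3.58.1 (R 4.3.3) with the 10 group means, contrasts and eBayes (20 residual and 1.2 prior degrees of freedom), with the Benjamini-Hochberg adjustment made contrast by contrast. The fit was tested on simulated data. Figures were drawn with matplotlib in Python. Gene symbols came from the platform's annotation table (34958 with 1 symbol, 932 with several, 9211 with none).

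The members and lists were chosen with earlier results of these data known. The text names all 7 members in every comparison, for each the 3 genes with the highest Pearson r over 30 arrays, and from each list up to 4 called genes per family of comparisons by the size of the log2 ratio, with *Csf1*, *Il1b*, *Il6*, *Tnfrsf1a*, *Ccl8*, *Nfkbie* and the cell type markers named after their values were seen. Alternative fits used a replicate block, left out dim probe sets, held only the compared groups, weighted the arrays, or ran eBayes with a trend and robustly, and others used median scaling, quantile normalization, an offset of 16, a floor of 50, each array left out and each other probe set of a member. The contrasts between days of a line difference or of a BMP2 effect, and their alternatives, were added after seeing the data.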

Additional observations from a re-analysis of the deposited data

Results flagged for a closer look

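The size of the line difference, C2C12-pMirn378 over C2C12-pMirn0, differed between days by a direct test of the difference. These contrasts were added after the values had been seen. From d0 to d6 untreated it moved upwards by 1.33 log2 units in *Cxcl1*, 2.55 in *Cxcl5*, 2.36 in *Cxcl12* and 1.37 in *Ccl7*. From d0 to d6 with BMP2 it moved upwards by 1.63 in *Cxcl5*, 2.43 in *Cxcl12*, 1.58 in *Ccl2* and 1.25 in *Ccl7*. Between d3 and d6 with BMP2 it moved upwards by 1.20 in *Cxcl1*, 1.39 in *Cxcl5* and 1.96 in *Cxcl12*. The values of *Cxcl1* were called on its representative probe set only. The call of *Cxcl5* between d3 and d6 was lost in most fits that left out a single array. Of these members, *Cxcl12* alone was called in opposite directions at d0 and d6, lower and then higher in C2C12-pMirn378 cells.

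The effect of BMP2 over untreated also differed between d6 and d3 by a direct test, likewise added after the values had been seen. In C2C12-pMirn378 cells it was higher at d6 by 1.41 in *Cxcl1*, 1.66 in *Cxcl5*, 1.55 in *Ccl2* and 1.11 in *Ccl7*. In C2C12-pMirn0 cells it was higher at d6 by 1.40 in *Cxcl1* and 1.94 in *Cxcl5*. On 1457644_s_at that change of *Cxcl1* in C2C12-pMirn0 cells was not called by limma (adjusted p = 0.0110).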

How the results depend on the processing

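Over 9 alternatives and 168 pairs of member and comparison, no called log2 ratio turned its sign, and 39 of the 59 changed calls came with only the compared groups in the fit, which leaves 4 to 8 residual degrees of freedom. That limma fit called 0 members in each line comparison and in each of d6 over d3. For BMP2 over untreated in C2C12-pMirn378 cells it called 0 at d3 and 1 at d6. It called 1 for the BMP2 effect by day in C2C12-pMirn378 cells. For the line difference from d0 to d6 it called 0 untreated and 1 with BMP2. Where it called 0, an unadjusted p under 0.05 was found for 2 to 7 members. The share of all probe sets called in that fit was not recorded. For the lines at d3 untreated, 3 members were called with dim probe sets left out or with trend and robust estimation, and 2 with array weights, the offset or the floor, against 1. Trend and robust estimation called 2 for the lines at d6 with BMP2, added *Ccl2* for the lines at d0 (-0.83, adjusted p = 0.00395) and for the line difference between d3 and d6 with BMP2 (1.12, adjusted p = 0.00464), and quantile normalization called 5 for BMP2 over untreated in C2C12-pMirn378 cells at d6. *Cx3cl1* for the lines at d3 with BMP2 was called with array weights (-0.65), the floor or dim probe sets left out (each -0.61). Replicate numbers occur in every group, and the correlation of same-numbered deviations was -0.17 to 0.23 and above 0.1 in 24 of 135 pairs, so the numbers were not taken to pair the arrays. The replicate block lost only *Cx3cl1* at d0 (adjusted p = 0.00591), leaving 4 members called there, and 21 of 30 arrays were closest on average to their own number, which is a hint from the data and not from the design.

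Leaving out single arrays gave 2 to 4 members called for BMP2 in C2C12-pMirn378 cells at d6 and 2 to 3 at d3, 2 to 5 for the lines at d3 with BMP2, 0 to 1 at d3 untreated, 1 to 2 for d6 over d3 in untreated C2C12-pMirn378 cells, 0 to 2 for the interaction at d3 and 2 to 3 for the line difference between d3 and d6 with BMP2. *Ccl2* with BMP2 in C2C12-pMirn378 cells at d6 was called only without replicate 1 of the treated group (-0.81) or with all arrays, and ranged over -0.66 to -0.81.

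Called directions turned only with another probe set, and uncalled ratios near 0 changed sign without single arrays, such as *Ccl7* with BMP2 in C2C12-pMirn0 cells at d3 (-0.14 to 0.045). On dim 1439084_at, *Cxcl12* gave -0.81 and -0.94 for the lines at d6 with BMP2 and untreated, -0.41 and -1.35 for d6 over d3 in C2C12-pMirn378 cells with BMP2 and untreated, and -0.79 for differentiation of untreated C2C12-pMirn0 cells. On 1417574_at it gave 1.32 and 1.22 with BMP2 at d3, where the representative was not called. *Cx3cl1* gave -0.049 on dim 1415804_at and -0.38 on dim 1441884_x_at for d6 over d3 in C2C12-pMirn378 cells with BMP2, and -0.19 on 1415804_at for BMP2 in C2C12-pMirn0 cells at d6. The cause was not tested. The median of all probe sets moved by at most 0.12 in any comparison, and by up to 0.14 under median scaling.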
